A study of Sus scrofa with 12 samples.

Results

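FBXO32, TRIM63 and FBXO30 encode ubiquitin ligases of muscle breakdown, FOXO1, FOXO3 and FOXO4 encode forkhead transcription factors, and KLF15 encodes a Krüppel-like transcription factor. Chromatin accessibility at these 7 genes was measured by ATAC-seq, in which a transposase cuts open DNA and reads pile up where chromatin is accessible. The samples were longissimus dorsi muscle, the long muscle of the back, of 3 Duroc and 3 Luchuan male pigs aged 180 days. Duroc is a lean breed and Luchuan a fat Chinese breed with thinner fibers. The boars were housed alike, carried no treatment and were fasted overnight before slaughter. Peak intervals were taken as belonging to a gene when their midpoint lay in its body or within 10 kb of it in the Sscrofa11.1 genome. Of 217213 intervals, 210 met this rule, and after overlapping common intervals were merged they gave 125 of 140081 regions. All 7 genes were found, out of 19550 protein-coding genes of the annotation.

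Muscle loses protein mainly through the ubiquitin-proteasome system and autophagy. When insulin and growth factor signals are low, as in fasting, FOXO factors are no longer held in the cytoplasm by AKT phosphorylation and activate genes of both systems. FBXO32 (also named MAFbx) and TRIM63 (MuRF1) are the classical ligase genes induced in atrophy, FBXO30 encodes a further F-box ligase linked to atrophy, and KLF15 is induced by glucocorticoids and takes part in amino acid breakdown and in the activation of ligase genes.

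The table gave 1 read count per region and breed, with no column per boar. No difference below therefore has a spread between animals or a test. The 95% Clopper-Pearson intervals cover counting error only, with each read taken as independent. Regions held 20760292 reads in Duroc and 13746432 in Luchuan in all, with medians of 61 and 38 per region. Luchuan counts were multiplied by 1.481, the median Duroc to Luchuan ratio over the common regions (those detected in both breeds), and 1 was added to each count before the log2 ratio was taken. A log2 ratio above 0 means more scaled Luchuan reads. The summed reads of all regions gave a factor of 1.51. Muscle fiber genes had the most accessible windows of the cell type markers, with a median of 828 Duroc reads per kb of region over 8 genes, against 189 for fat cell, 163 for endothelial, 219 for leukocyte and 210 for fibroblast genes. Of these fiber genes, MYH1, MYH2 and MYH4 are neighbours on chromosome 12 whose windows share regions, so their ratios are not separate observations. The summed log2 ratio was below 0 for 7 of the 8 fiber genes, with a median of -0.37, and lowest for MYH4, a fast myosin heavy chain, at -0.61. It was above 0 for the 3 fat cell genes with a region, between 0.07 and 0.34 on 520 reads in Duroc and 401 in Luchuan in all, with intervals that each included 0, while FABP4 had no region. The log2 ratio was above 0 for 1 of 4 endothelial genes (median, -0.0028), 2 of 4 leukocyte genes (0.03, range -1.07 to 1.20) and 1 of 3 fibroblast genes (-0.0023). In whole muscle, fewer cells of a type and less accessible chromatin per cell cannot be told apart, and the part of these shifts in the results below was not tested.

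FOXO1 had the highest ratio of the 7 genes and FOXO4 the lowest. The window of FOXO1 held 4675 reads in Duroc and 3917 in Luchuan, a log2 ratio of 0.31 (95% interval, 0.25 to 0.37), or 1.24-fold more after scaling. FBXO32 followed with 5334 reads in Duroc and 4233 in Luchuan and a log2 ratio of 0.23 (0.17 to 0.29). TRIM63 had 3496 and 2611 reads and a log2 ratio of 0.15 (0.07 to 0.22). For FOXO3 the counts were 7340 and 5326 and the log2 ratio was 0.10 (0.05 to 0.15). The intervals of FOXO1, FBXO32, TRIM63 and FOXO3 all lay above 0. KLF15 had 1451 and 1019 reads and a log2 ratio of 0.06 (-0.06 to 0.17). FBXO30 had 1399 and 939 reads and a log2 ratio of -0.0086 (-0.13 to 0.11). The intervals of KLF15 and FBXO30 included 0. FOXO4, the only member on the X chromosome, had 500 reads in Duroc and 288 in Luchuan and a log2 ratio of -0.23 (-0.44 to -0.02), which turned to 0.0079 when the counts were scaled within the chromosome. In this order, the intervals of all neighbouring genes overlapped, while those of FOXO1 and TRIM63 did not.

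**Figure D1:**
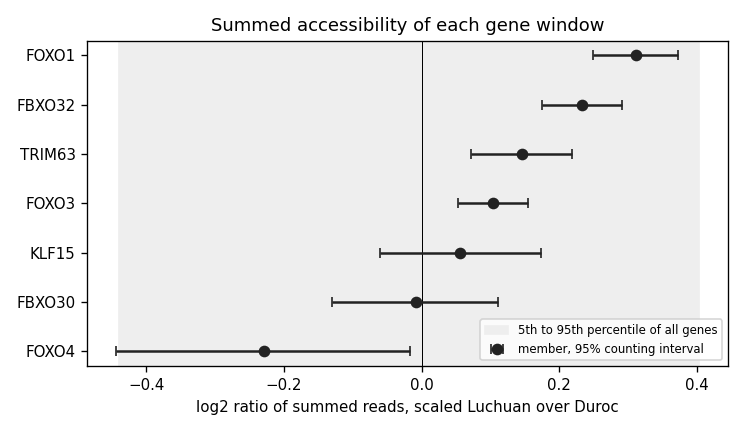
The log2 ratio of summed reads (scaled Luchuan over Duroc, x axis) is plotted for each of the 7 gene windows, with bars for the 95% interval of counting error and grey for the 5th to 95th percentile of all genes (-0.44 to 0.40). The points run from 0.31 for FOXO1 to -0.23 for FOXO4, and all of them lie within the grey band.

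The differences were moderate among genes at large. Over 15822 protein-coding genes with 100 or more reads, the median summed log2 ratio was -0.01, and 48.0% of the genes were above 0. The share of these genes with a lower ratio was 92.0% for FOXO1, 86.5% for FBXO32, 77.1% for TRIM63, 71.0% for FOXO3, 62.4% for KLF15, 50.2% for FBXO30 and 15.3% for FOXO4. By gene, 5 of the 7 members were above 0. Of the 125 member regions, 102 had a log2 ratio above 0, or 81.6%, against 48.7% of all regions. Most of the 102 were neighbours in a few windows, with 30 in FOXO1, 29 in FOXO3, 23 in FBXO32 and 13 in TRIM63. The median over the member regions was 0.19 (interquartile range, 0.06 to 0.49) and over all regions -0.02 (-0.35 to 0.31). The common class held 75 of the 125 member regions and 49.1% of all regions, and 25 member regions each were detected in Duroc alone or in Luchuan alone.

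Of the 125 member regions, 4 were 2-fold or more higher in Luchuan and 0 were 2-fold or more higher in Duroc, where 7.2% and 5.66% of all regions passed this fold. Most member regions were well covered, with 50 or more reads of both breeds together in 121 of 125. The 4 regions were all among these 121. Among all regions with such coverage, 2.41% were 2-fold higher in Luchuan and 5.34% in Duroc. With this floor the members were not below all regions in the direction of Luchuan, through FOXO1 alone, but were below them in that of Duroc. The floor matches neither depth nor class. The median was 185 reads per member region and 100 over all regions. Of 67175 common regions with 50 or more reads, 654 were 2-fold higher in Luchuan and 962 in Duroc. The 4 regions all belonged to FOXO1 and had been detected in Luchuan alone. Detection in 1 breed favours a high count in it, and 34.7% of all Luchuan-specific regions passed 2-fold in favour of Luchuan, against 4 of the 25 member regions of that class. Of the Duroc-specific regions, 15.6% passed it in favour of Duroc and 0 of the 25 member regions did.

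**Figure D2:**
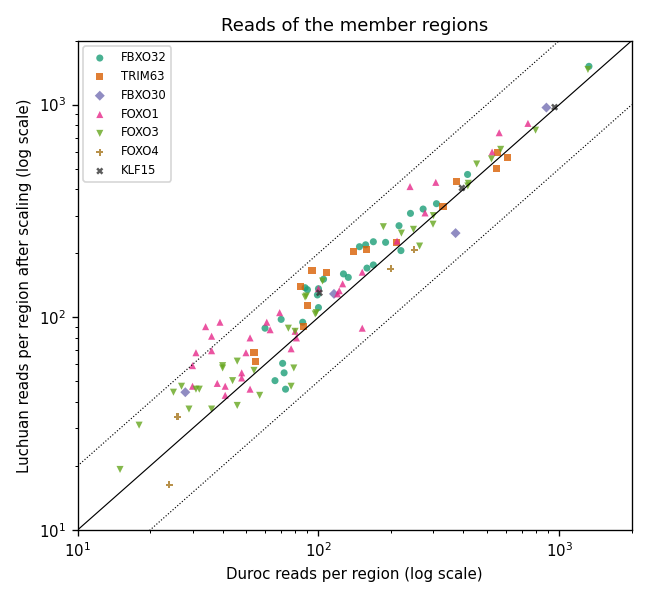
Each point is 1 of the 125 regions, with Duroc reads on the x axis and scaled Luchuan reads on the y axis, both on log scales, the solid line marking equality and the dotted lines 2-fold. The points follow the solid line, with 102 above it, and 4 FOXO1 regions lie above the upper dotted line.

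Levels can be compared between genes only per length. Per kb of region, the windows held 774 Duroc reads for KLF15, 662 for TRIM63, 636 for FBXO30, 604 for FBXO32, 551 for FOXO3, 445 for FOXO1 and 315 for FOXO4, beside a median of 457 over the 15822 genes. Scaled Luchuan reads per kb of region were 805 for KLF15, 733 for TRIM63, 710 for FBXO32, 632 for FBXO30, 592 for FOXO3, 552 for FOXO1 and 269 for FOXO4. The order was the same in both breeds, except that FBXO30 and FBXO32 changed places. The number of regions followed the length of the gene only in part. FOXO3 (133.7 kb) had 37 and FOXO1 (92.8 kb) 34, but FBXO32 (30.1 kb) had 28 and FBXO30 (21.4 kb) 4. For 6 of the 7 genes the region with the most reads held a gene end or lay within 1 kb of it, against 56.3% of all genes, and TRIM63 was the exception. The strand of the genes was not in the annotation used here, so ends are named by their coordinates and no end is called a promoter.

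FOXO1 encodes a FOXO factor linked to fiber atrophy and to the switch from glucose to fat as fuel. It lies on chromosome 11 from 15317222 to 15410059. Its accessibility differed most beyond the end with the lower coordinate. There, 4 regions held 349 reads in Duroc and 458 in Luchuan, so that Luchuan had more reads even without scaling, and their summed log2 ratio was 0.96 (0.75 to 1.16). Between 15313202 and 15313420 there were 34 reads in Duroc and 61 in Luchuan, a log2 ratio of 1.38 (0.78 to 2.06), the highest of all 125 regions. Between 15315766 and 15315978 there were 39 and 64 reads and a log2 ratio of 1.26 (0.68 to 1.89). Between 15312729 and 15312914 there were 36 and 55 reads and a log2 ratio of 1.16 (0.55 to 1.83). These 3 regions lay 1.24 to 4.31 kb from the gene and were detected in Luchuan alone. Next to them, the region from 15311956 to 15312683 was detected in both breeds, and its 240 reads in Duroc and 278 in Luchuan gave a log2 ratio of 0.78 (0.52 to 1.03). The shift therefore also held in a well-covered region of the common class.

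Inside FOXO1 the difference was smaller. The region from 15323716 to 15323867, 6.49 kb into the gene, was the fourth past 2-fold, with 31 reads in Duroc and 46 in Luchuan and a log2 ratio of 1.11 (0.45 to 1.84). The common region from 15321907 to 15322508 had 307 and 291 reads and a log2 ratio of 0.49 (0.25 to 0.73). On the side of the gene's midpoint with lower coordinates, 19 regions summed to a log2 ratio of 0.49 (0.40 to 0.58), and on the other side 15 regions summed to 0.15 (0.07 to 0.24). These intervals do not overlap. The division at the midpoint was made after the values had been seen, and was applied to every member. The most read region, from 15409825 to 15410715, lay over the end with the higher coordinate, and its 741 reads in Duroc and 551 in Luchuan gave a log2 ratio of 0.14 (-0.02 to 0.30). The region from 15408032 to 15408780, 1.28 kb inside that end, had 563 and 498 reads and a log2 ratio of 0.39 (0.21 to 0.57). The lowest ratio of the 125 regions was also in FOXO1, from 15384898 to 15385382, where 152 reads in Duroc and 60 in Luchuan gave -0.77 (-1.23 to -0.33). In all, 30 of the 34 FOXO1 regions were above 0, the interval lay above 0 for 13 and below 0 for 1, and the gene's sum without the 4 regions past 2-fold was 0.27. Over the 18 common regions alone it was 0.30. The regions beyond the end with the higher coordinate had midpoints in another gene, LOC102160118, and without them the sum was 0.33.

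FOXO3, whose activation alone is known to induce ligase and autophagy genes in muscle, lies on chromosome 1 from 74626673 to 74760323. The most read region, from 74626073 to 74627322, spanned the end with the lower coordinate, and its 1315 reads in Duroc and 988 in Luchuan gave a log2 ratio of 0.15 (0.03 to 0.27). The 2 next regions in the gene were near equality, with 797 reads in Duroc and 512 in Luchuan from 74627710 to 74628489 (-0.07, interval -0.23 to 0.09) and 419 and 288 reads from 74629082 to 74629512 (0.03, -0.20 to 0.25). The highest ratio among regions with 50 or more reads was 0.81 (0.01 to 1.66), from 74708361 to 74708517, on only 25 reads in Duroc and 30 in Luchuan. The lowest was -0.69 (-1.34 to -0.09), from 74642847 to 74643149, on 77 and 32 reads. A better covered region, from 74727287 to 74727620, had 186 and 180 reads and a log2 ratio of 0.52 (0.22 to 0.82). At the other end, the nearest region, 0.90 kb inside the gene from 74759246 to 74759422, had 36 and 25 reads and a log2 ratio of 0.04 (-0.76 to 0.82). Both sides of the midpoint had about the same summed log2 ratio, 0.10 (0.04 to 0.17) and 0.11 (0.02 to 0.19). Of the 37 regions, 29 were above 0, and the interval lay above 0 for 8 and below 0 for 1. The regions from 74764599 to 74765322 and from 74766742 to 74767132 had midpoints in another gene, LOC106508914. Without them the gene's sum was 0.12.

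**Figure D3:**
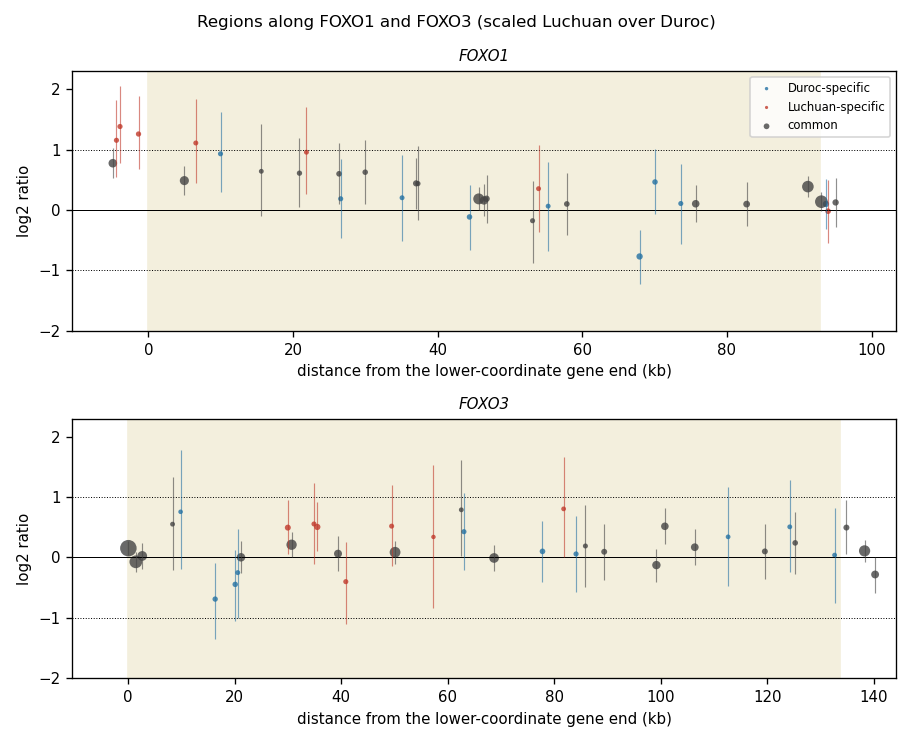
The log2 ratio of each region (scaled Luchuan over Duroc, y axis) is plotted against its distance in kb from the lower-coordinate end of FOXO1 (top) and FOXO3 (bottom), with the gene body shaded, bars for the 95% interval of counting error, colours for the class of the region, point size for its reads and dotted lines at 2-fold. In FOXO1 the regions beyond the lower end stand highest, up to 1.38, those inside the gene reach 1.11, and in FOXO3 no region passes 2-fold.

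FOXO4, a further FOXO factor under AKT control, lies on the X chromosome from 57132549 to 57140377, and its 4 regions all lay at or beyond the end with the lower coordinate. The region over that end, from 57132466 to 57133180, had 250 reads in Duroc and 140 in Luchuan and a log2 ratio of -0.27 (-0.58 to 0.03). Its neighbour from 57131998 to 57132463 had 200 and 114 reads and a log2 ratio of -0.24 (-0.59 to 0.09). The 2 other regions were weak, with 24 reads in Duroc and 11 in Luchuan from 57131819 to 57131968 and 26 and 23 reads from 57126316 to 57126571. None of the 4 intervals excluded 0. FOXO4 shared its ratio with much of its chromosome. The median log2 ratio was -0.24 over 3323 X regions, while each autosome had a median from -0.10 to 0.07. Over the 512 X genes with 100 or more reads, the median summed log2 ratio was -0.15, and 35.2% of them were lower than FOXO4.

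FBXO32 lies on chromosome 4 from 15895875 to 15925929, and it was densely accessible, with 28 regions and more Duroc reads than 97.1% of the 15822 genes. The strongest region, from 15894730 to 15896150 over the end with the lower coordinate, had 1328 reads in Duroc and 1022 in Luchuan and a log2 ratio of 0.19 (0.07 to 0.31). It held 24.9% of the Duroc and 24.1% of the Luchuan reads of the window. The 16 regions inside the gene were all above 0, with 2542 reads in Duroc and 2109 in Luchuan in sum and a log2 ratio of 0.30 (0.21 to 0.38). The highest, from 15898093 to 15898261, had 88 and 93 reads and a log2 ratio of 0.64 (0.21 to 1.08), and was detected in Luchuan alone. Among common regions of the gene, that from 15911665 to 15911854 had 105 and 102 reads and a log2 ratio of 0.52 (0.12 to 0.93). The end with the higher coordinate held no region, and the nearest one lay 1.72 kb beyond it, from 15927648 to 15927973, with 157 and 148 reads and a log2 ratio of 0.48 (0.15 to 0.81). Farther out, 3 Duroc-specific regions lay below 0. From 15931471 to 15931633, 73 reads in Duroc and 31 in Luchuan gave the gene's lowest log2 ratio, -0.66 (-1.32 to -0.04), and its 2 neighbours had -0.39 and -0.38, with intervals that included 0. In all, 23 of the 28 regions were above 0. Both sides of the midpoint were alike, at 0.24 (0.16 to 0.32) and 0.22 (0.13 to 0.31).

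TRIM63 lies on chromosome 6 from 83493200 to 83507471, with 15 regions. Here the counting intervals of the 2 sides of the gene did not overlap. On the side of the midpoint with lower coordinates, 8 regions held 854 reads in Duroc and 772 in Luchuan, a log2 ratio of 0.42 (0.28 to 0.56), and on the other side 7 regions held 2642 and 1839 reads, a log2 ratio of 0.04 (-0.04 to 0.13). Inside the gene, the highest region, from 83496785 to 83497056, had 94 reads in Duroc and 112 in Luchuan and a log2 ratio of 0.81 (0.41 to 1.23). The region nearest to the lower end, from 83491996 to 83492229 and 0.97 kb from it, had 84 and 94 reads and a log2 ratio of 0.72 (0.29 to 1.17). The region from 83495315 to 83495560 followed, with 108 and 110 reads and a log2 ratio of 0.59 (0.20 to 0.99). These 3 regions were detected in both breeds. The region over the end with the higher coordinate, from 83507169 to 83507754, had 547 and 337 reads, and its log2 ratio of -0.13 (-0.33 to 0.07) was the lowest of the gene. The region with the most reads lay 2.48 kb beyond that end, from 83509952 to 83510625, with 612 and 382 reads and a log2 ratio of -0.11 (-0.30 to 0.07). On the same side as these, the common region from 83503859 to 83504095 inside the gene had 140 and 138 reads and a log2 ratio of 0.54 (0.20 to 0.90). Of the 5 TRIM63 regions whose interval lay above 0, it was the one on that side of the midpoint.

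FBXO30 lies on chromosome 1 from 19756232 to 19777621 and had 4 regions, which did not move together. The region over the end with the lower coordinate, from 19755818 to 19756804, had 884 reads in Duroc and 654 in Luchuan, a log2 ratio of 0.13 (-0.02 to 0.28). The adjoining Luchuan-specific region from 19756807 to 19757044 had 116 and 87 reads and a log2 ratio of 0.15 (-0.27 to 0.57). Beyond the other end by 1.11 kb, the common region from 19778727 to 19779551 had 371 reads in Duroc and 168 in Luchuan and a log2 ratio of -0.57 (-0.85 to -0.31), one of 4 member regions whose interval lay below 0. The Luchuan-specific region between it and the gene, from 19778269 to 19778418 and 0.65 kb away, had 28 and 30 reads and a log2 ratio of 0.65 (-0.13 to 1.46). The sum near 0 for this gene was thus made of a strong region slightly above and a flanking region below equality. Over the gene body alone the log2 ratio was 0.13.

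**Figure D4:**
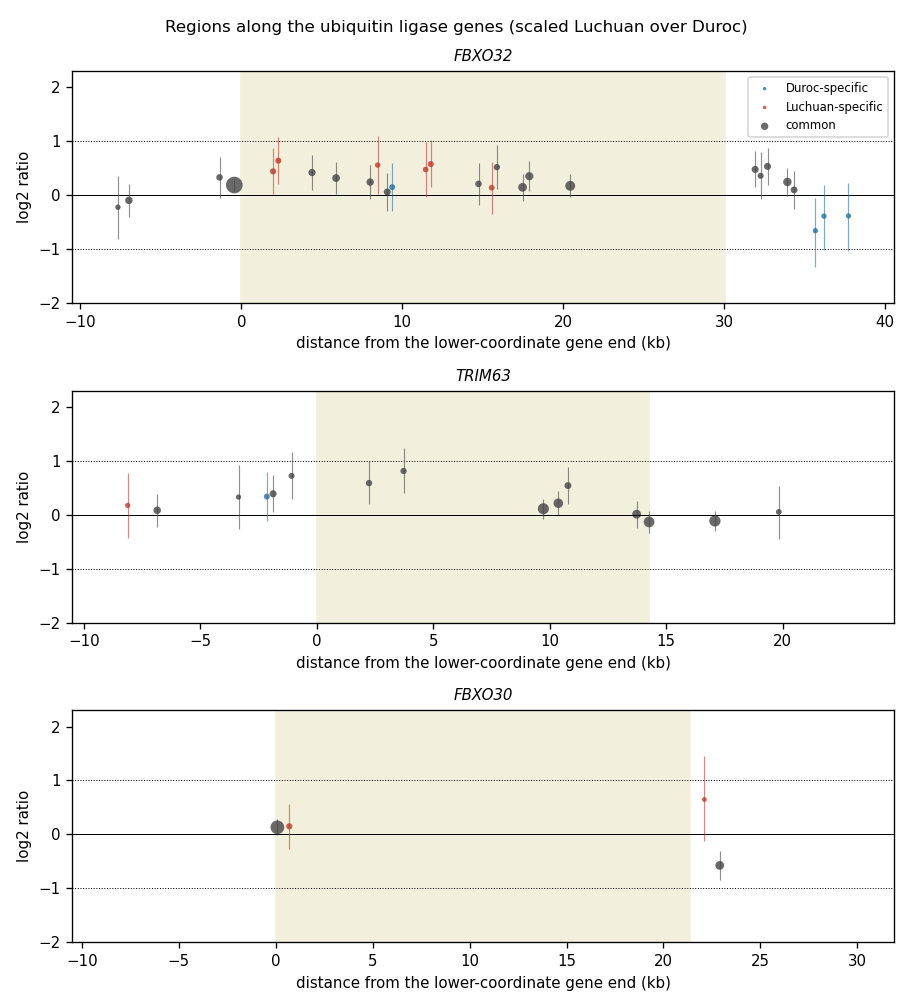
The log2 ratio of each region (scaled Luchuan over Duroc, y axis) is plotted against its distance in kb from the lower-coordinate end of FBXO32, TRIM63 and FBXO30 (top to bottom), with the gene body shaded, bars for the 95% interval of counting error, colours for the class, point size for reads and dotted lines at 2-fold. All 16 regions inside FBXO32 stand above 0, TRIM63 is highest towards its lower end, and 1 common region beyond FBXO30 stands at -0.57.

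KLF15 lies on chromosome 7 from 53877813 to 53890558, and its 3 regions were within 2 kb of the end with the higher coordinate. The most read region, from 53889088 to 53890247, had 956 reads in Duroc and 657 in Luchuan and a log2 ratio of 0.03 (-0.12 to 0.17). It held 65.9% of the Duroc and 64.5% of the Luchuan reads of the window. The region over the end, from 53890448 to 53890954, had 394 and 274 reads and a log2 ratio of 0.04 (-0.19 to 0.27), and its midpoint also lay in a long non-coding gene, LOC102164647. The Luchuan-specific region from 53888818 to 53889025 had 101 and 88 reads and a log2 ratio of 0.36 (-0.06 to 0.79). No difference was detectable in this window at this depth, but with flanks of 50 kb in place of 10 kb the summed log2 ratio of KLF15 was 0.24.

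The other genes of these pathways were examined in 5 lists over the same windows, beside 48.0% of all genes with a ratio above 0, and 7.2% and 5.66% of all regions 2-fold higher in Luchuan and in Duroc. Of the genes that FOXO factors are known to regulate in growth arrest and stress, 13 of 15 were above 0, with a median summed log2 ratio of 0.16. Of their 147 regions, 8 (5.44%) were 2-fold higher in Luchuan and 2 (1.36%) in Duroc. With 50 or more reads, 7 and 1 of 139 regions were, beside 2.41% and 5.34% of all regions so covered. At that coverage the share higher in Luchuan was above that of all regions through PDK4 alone, and the share higher in Duroc was below it. PDK4, a kinase that inhibits pyruvate dehydrogenase, had 1814 reads in Duroc and 2143 in Luchuan and a log2 ratio of 0.81 (0.72 to 0.90). It was the highest gene of the list and held all 7 regions that were 2-fold higher in Luchuan with 50 or more reads. The other genes of the list had none at that coverage. SOD2, mitochondrial superoxide dismutase, stood opposite with 1113 and 587 reads and a log2 ratio of -0.36 (-0.50 to -0.21). The cell cycle inhibitor CDKN1A, with 962 and 823 reads, and the stress gene GADD45A, with 1536 and 1310, both had a log2 ratio of 0.34 without a region past 2-fold, and were picked for mention after their values were seen.

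Of 24 ubiquitin genes other than the members, 8 were above 0, with a median log2 ratio of -0.06. Of their 330 regions, 2 (0.606%) were 2-fold higher in Luchuan and 9 (2.73%) in Duroc, beside 7.2% and 5.66% of all regions. With 50 or more reads, 0 and 5 of 291 regions were, beside 2.41% and 5.34% of all regions so covered. CBLB, a ligase acting on IRS proteins, had 1530 reads in Duroc and 1186 in Luchuan and a log2 ratio of 0.20 (0.09 to 0.31). Its 1 region past 2-fold with 50 or more reads went the other way, at -1.16 on 64 Duroc and 19 Luchuan reads. FBXO31 had 6755 and 4085 reads and a log2 ratio of -0.16 (-0.22 to -0.10). The conjugating enzyme gene UBE2G1 was at -0.15 (-0.20 to -0.09) and the muscle F-box gene FBXO40 at -0.09 (-0.17 to -0.02). Of the close relatives of TRIM63, TRIM54 was at 0.16 (0.08 to 0.24) and TRIM55 at 0.09 (-0.01 to 0.20), and both were named after their values were seen.

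Autophagy and lysosome genes were mixed, with 7 of 17 above 0 and a median log2 ratio of -0.03. Of their 114 regions, 2 (1.75%) were 2-fold higher in Luchuan and 6 (5.26%) in Duroc, beside 7.2% and 5.66% of all regions. With 50 or more reads, 1 and 3 of 96 regions were, beside 2.41% and 5.34% of all regions so covered, too few to rank. ULK2, a kinase that starts autophagy, had 592 reads in Duroc and 266 in Luchuan and a log2 ratio of -0.59 (-0.80 to -0.38). CTSL, the lysosomal protease cathepsin L, had 1325 and 686 reads and a log2 ratio of -0.38 (-0.52 to -0.25). ATG14 was at -0.13 (-0.27 to 0.01). MAP1LC3A, an LC3 protein of autophagosome membranes, was on the other side with 924 and 777 reads and a log2 ratio of 0.32 (0.18 to 0.46).

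Upstream kinases, deacetylases and partners of the FOXO factors were also mixed, with 6 of 14 genes above 0 and a median of -0.03. Of their 265 regions, 13 (4.91%) were 2-fold higher in Luchuan and 8 (3.02%) in Duroc, beside 7.2% and 5.66% of all regions. With 50 or more reads, 6 and 3 of 215 regions were, beside 2.41% and 5.34% of all regions so covered. Of the 13, 10 belonged to PPARGC1A, the PGC coactivator gene of oxidative metabolism. It had 7919 reads in Duroc and 6606 in Luchuan and a log2 ratio of 0.30 (0.26 to 0.35). PIK3R1, a regulatory subunit of phosphoinositide kinase, was at 0.14 (0.07 to 0.20). PRKAA2, a catalytic subunit of AMP-activated kinase, was at -0.25 (-0.32 to -0.17), and SGK1, a kinase that phosphorylates FOXO factors, at -0.23 (-0.32 to -0.13). AKT1 had no place on a chromosome in the annotation and was not analysed here. Of the 6 genes linked to KLF15, 3 had a region. KLF9 was at 0.23 (0.18 to 0.29), GPT at -0.09 (-0.20 to 0.02) and BCAT2, the mitochondrial branched-chain aminotransferase, at -0.41 (-0.54 to -0.27). Of the 36 regions of this list, 2 (5.56%) were 2-fold higher in Luchuan and 1 (2.78%) in Duroc, beside 7.2% and 5.66% of all regions. With 50 or more reads, 2 and 1 of 35 regions were, beside 2.41% and 5.34% of all regions so covered. These numbers are too small to rank against those shares.

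**Figure D5:**
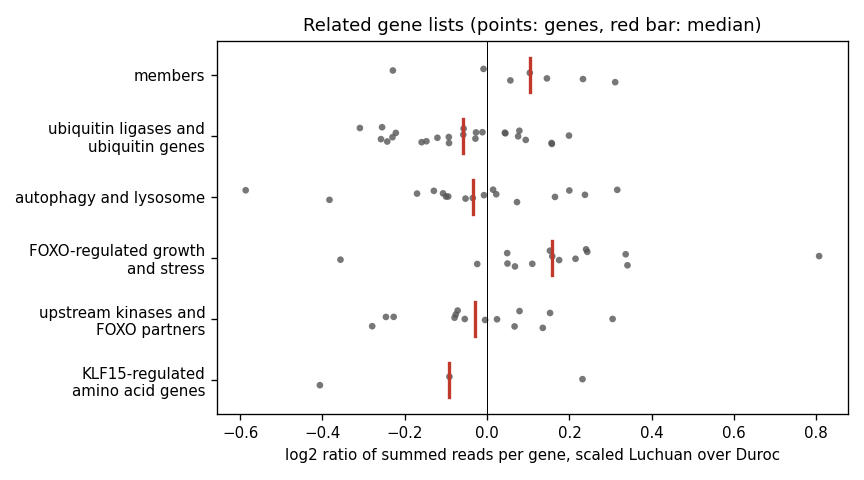
Each point is the log2 ratio of summed reads of 1 gene (scaled Luchuan over Duroc, x axis), in rows for the 7 members and the 5 lists of related genes, with a red bar for the median and random vertical scatter. The medians are 0.16 for FOXO-regulated genes and 0.10 for the members, and lie between -0.09 and -0.03 for the other lists.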

How the data were processed

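ATAC-seq of longissimus dorsi muscle was available for 3 boars per breed. The mRNA libraries were not used here. According to the labels, the authors trimmed with Trimmomatic (version 0.36), mapped with Bowtie2 to the Sscrofa11.1 genome, and called peaks by means of MACS2. The assembly comes from a Duroc pig, and whether this moves the ratios was not tested. Versions of the last tools, removal of duplicates, the transposase shift and the way boars were combined are not given in the sources used here. The authors deposited raw read counts per peak interval, in 1 column per breed, which was read as pooled. The deposited table also holds the authors' rescaled log2 fold change, average signal and p-value, which were not used.

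Starts were counted from 1. Common intervals that overlapped or adjoined each other were merged, with the longest kept. Luchuan counts were scaled by the median Duroc to Luchuan ratio over common regions, and 1 was added. No test between breeds was possible with 1 count each. For each log2 ratio, the Luchuan share of reads was given its 95% Clopper-Pearson interval, and both bounds were converted. Such intervals cover counting error only, because there is 1 count per breed. Without molecular identifiers reads cannot be taken as independent molecules, so the intervals may be too narrow even for counting error. The fold of 2 is that of the study's criterion. Gene positions came from the RefSeq table of Sscrofa11.1, which has no strand or exons, so introns, exons and promoters were not separated. No sequence was given, and none is shown.

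For each member, the text names the region with the most reads, those at or nearest to gene ends, the highest and lowest with 50 or more reads, and every region past 2-fold. For a related list it names at most 4 genes that have a region past 2-fold with 50 or more reads, by the size of the summed log2 ratio. Further regions were added for context after their values were seen. Members and lists were chosen with earlier results of these data known. Calculations were tested on simulated counts and used pandas 2.3.3 and NumPy 2.4.6 under Python 3.11.15, with SciPy 1.17.1 for intervals and Matplotlib 3.10.9 for plots.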

Additional observations from a re-analysis of the deposited data

How the results depend on the processing

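No paired analysis was possible because the counts have 1 column per breed and carry no replicate number, and no boar could be left out for the same reason. Each gene's summed log2 ratio was recomputed under 14 alternatives, of which leaving out regions in other genes, leaving out regions past 2-fold and using common regions alone were chosen after seeing the data. All values of FOXO1 (0.25 to 0.35), TRIM63 (0.14 to 0.20) and FOXO3 (0.07 to 0.13) stayed within the counting interval of the value reported. With the gene body alone, FBXO32 moved to 0.30 and FBXO30 to 0.13, and 1 region in place of 4 was 2-fold higher in Luchuan. With 2 kb flanks that number was 2. With 50 kb flanks, FBXO32 moved to 0.15, FBXO30 to 0.12 and KLF15 to 0.24, and 11 regions were 2-fold higher in Luchuan and 2 in Duroc. Over all regions, 7.2% and 5.66% passed this fold. The number of regions changes with the window, so these counts are not shares and cannot be ranked against one another. With the counts scaled within the chromosome, FOXO4 moved to 0.0079. FBXO30, near 0, had the other sign under 5 alternatives. At 1.5-fold, 19 member regions were higher in Luchuan and 3 in Duroc, where 15.3% and 14.7% of all regions passed, and at 3-fold 0 were higher in Luchuan. Scaling within bins of read count gave 6 of the 125 regions 2-fold higher in Luchuan, where 4.61% of all regions passed under the same scaling. Depth limits the weak regions, since a region with 50 reads has a wide interval, and the spread between boars is unknown.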

Other observations

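Beyond the windows, accessibility from 10 to 50 kb outside the genes was summed in the same way. KLF15, without a detectable difference in its own window, had 6 regions on the lower-coordinate side with 610 Duroc and 609 Luchuan reads, a log2 ratio of 0.56 (0.40 to 0.73). Of these, the regions from 53849289 to 53849531, with 48 Duroc and 67 Luchuan reads and a log2 ratio of 1.03, and from 53853242 to 53853395, with 21 and 34 reads and 1.22, were past 2-fold, and both were detected in Luchuan alone. The common regions from 53845304 to 53846032 and from 53854287 to 53855003 were at 0.35 and 0.43.

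Beside TRIM63, 9 regions on the lower-coordinate side had 2737 Duroc and 2431 Luchuan reads, a log2 ratio of 0.40 (0.32 to 0.47). The common region from 83478607 to 83479280, at the zinc transporter gene SLC30A2, had 269 and 412 reads and a log2 ratio of 1.18. On the other side of TRIM63, 16 regions summed to -0.08 (-0.16 to -0.0091). Around FOXO4 both sides were lower in Luchuan, at -0.46 (-0.61 to -0.31) and -0.41 (-0.64 to -0.18). Beyond the lower-coordinate end of FOXO1, where the nearest 10 kb stood at 0.96, the next 3 regions summed to 0.09 (-0.29 to 0.47) on 139 Duroc and 100 Luchuan reads. From 10 to 50 kb beyond the other end, 3 regions stood at 0.57 (0.35 to 0.80) on 328 and 329 reads, all with midpoints in LOC102160118. On the upper-coordinate side, FBXO32 had 7 regions at -0.41 (-0.60 to -0.22), with 1 region 2-fold higher in Duroc, and FOXO3 had 6 regions at -0.21 (-0.35 to -0.06), both opposite in sign to the genes' own windows. Their lower-coordinate sides were at 0.10 (0.0074 to 0.18) for FBXO32 and 0.25 (-0.06 to 0.55) for FOXO3. The sides of FBXO30 were at 0.17 (0.03 to 0.31) and 0.21 (0.08 to 0.33), and the upper-coordinate side of KLF15 was at 0.32 (0.12 to 0.53). These windows were chosen after the data had been seen, and what lies behind the values was not tested.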
